A study of Mus musculus with 6 samples.

Results

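The Sprouty genes Spry1, Spry2 and Spry4, the Spred genes Spred1 and Spred2, and Il17rd, which encodes Sef, are feedback inhibitors of receptor tyrosine kinase signalling. These 6 genes were taken by their exact symbol from the 22180 genes that the arrays measured, and each was read by 1 probe. Expression had been measured with Affymetrix Mouse Gene 2.0 ST arrays in 6 cultures derived from EB3, a mouse embryonic stem cell line. The stem cells (mESC) were grown in N2B27 with LIF and BMP4, and epiblast-like cells (EpiLC) had been made from them over 2 days in the same base medium, with ActivinA at 20 ng/ml and bFGF at 12 ng/ml. Each state was left untreated, given CHIR99021 (CHIR) at 3 µM for 24 hours, or given that dose together with PD0325901 (PD) at 1 µM for 24 hours. CHIR inhibits GSK3, a kinase that marks beta-catenin for breakdown, and PD inhibits MEK, which phosphorylates ERK1/2. PD was never given without CHIR, all cultures came from 1 line, and each of the 6 groups was 1 array. A difference between single arrays therefore has no error and no p-value here.

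FGF and other growth factors act through receptor tyrosine kinases, which switch on Ras, Raf, MEK and ERK in turn. ERK induces genes whose products dampen the same cascade. Sprouty proteins act between the receptor and Raf, Spred proteins recruit neurofibromin to Ras, and Sef is a membrane protein that restrains FGF receptor and MEK-ERK signalling. In mouse embryonic stem cells FGF4 is the main autocrine input to ERK, and ERK activity opens the way out of the naive state, so these genes are widely read as a sign of pathway activity.

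The state labels were checked against marker genes. All 8 naive markers were at least 2-fold lower and all 6 formative markers at least 2-fold higher in untreated EpiLC than in untreated mESC. The summed intensity of the naive markers was 7780 to 10035 on the 3 mESC arrays and 534 to 934 on the 3 EpiLC arrays. The formative markers summed to 9996 in untreated EpiLC but to 4373 with CHIR and 2236 with CHIR and PD, so the label EpiLC names the culture rather than the level of these genes there. Median intensity over all probes was 60.55 to 65.17 on the 6 arrays, and the lower quartile was 32.49 to 35.23. The lowest intensity was 16 on every array, so differences of dim genes are compressed. In such bulk samples, fewer cells of a type and less RNA per cell cannot be told apart.

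RefSeq promoter windows, running from 250 bases before to 50 bases after the start (build GRCm38.p6), were found for 5 of the 6 genes, all but Spry4. They are shown side by side as background, and no link between them and the PD differences was tested. The 3 stretches that follow are the 150 bases just before the start of a Spred gene, of Sef and of a Sprouty gene, 5′ to 3′ on the gene's strand, with the GC box GGGCGG in capitals on either strand.
Spred1, plus strand, chr2:117120921-117121070: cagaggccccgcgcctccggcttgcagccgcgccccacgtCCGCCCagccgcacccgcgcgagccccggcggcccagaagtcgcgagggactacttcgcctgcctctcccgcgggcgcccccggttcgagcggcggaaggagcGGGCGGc
Il17rd, plus strand, chr14:27038851-27039000: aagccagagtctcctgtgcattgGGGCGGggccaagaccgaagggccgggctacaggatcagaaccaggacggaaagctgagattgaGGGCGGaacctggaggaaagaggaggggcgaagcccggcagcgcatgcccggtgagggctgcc
Spry2, minus strand, chr14:105896820-105896969: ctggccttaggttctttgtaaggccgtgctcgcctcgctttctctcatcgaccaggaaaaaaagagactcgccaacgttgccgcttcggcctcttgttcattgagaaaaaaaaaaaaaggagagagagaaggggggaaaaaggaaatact
The GC box occurred in 4 of the 5 member windows (Spry1, Spred1, Spred2 and Il17rd), beside 35.66% of the 32851 windows in the table, where a gene can have several. G and C made up 57.0% of the Spred2 window and 72.3% of the Spred1 window, the lowest and highest of the 5, against a median of 52.7% over all windows. The ratio of observed to expected CpG was 0.70 to 1.03 in the 5 windows, against a median of 0.38. An Ets word (CCGGAAG, in 8.86% of all windows), an AP-1 word (TGANTCA, 7.81%), a CRE word (TGACGTCA, 1.79%), a TCF/LEF word (CTTTGAT, 3.73%) and a Capicua word (TGAATGNA, 3.82%) were searched on both strands, and 0 of the 5 windows held any of them. That says only that these letters are not in these windows.

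Addition of PD to CHIR was accompanied by lower values of all 6 genes in both states, and the difference ran from a small one for Spry1 in EpiLC to 16.8-fold for Spry4 in mESC. Among the Sprouty genes, Spry4, whose product blocks growth factor-induced Ras activation, had an intensity of 610.5 in untreated mESC, 608.3 with CHIR and 36.2 with CHIR and PD. In EpiLC it was at 346.2, 338.3 and 22.3. Its 2 arrays with PD lay far below the other 4 (highest with PD 36.2, lowest without 338.3), and near or under the lower quartile of their arrays. With PD, 5.96% of the CHIR level was left in mESC and 6.60% in EpiLC, a log2 difference of -4.07 and -3.92. Because the values with PD are dim, these sizes move with the floor of 16. With the floor lowered to 4 they were -4.62 and -4.98, and with it raised to 64 they were -2.96 and -2.46. With probes averaged per gene, 0 of the 22180 genes had a lower difference in mESC and 7 did in EpiLC. With the brightest probe of each gene instead, 1 gene did in mESC (Dusp6, at -4.11) and 9 in EpiLC, and with a floor of 64 it was 16 in EpiLC.

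Spry2, a Sprouty protein that binds Grb2 and Cbl, was at 692.7, 730.8 and 290.3 in untreated, CHIR-treated and doubly treated mESC. In EpiLC it went from 671.6 through 446.1 to 68.6. The untreated arrays of the states lay close together, whereas those with PD were 4.23-fold apart, and both PD arrays lay below the other 4. The difference of PD on CHIR was -1.33 in mESC and -2.70 in EpiLC (log2), a gap of -1.37 between the states that could not be tested with 1 array per group. Spry1, which restrains Ras-ERK signalling in the developing kidney, was at 136.0, 145.1 and 79.1 in mESC. It was at 158.6, 99.4 and 78.9 in EpiLC. Its PD arrays were nearly equal in the states and below the other 4, and PD on CHIR made a difference of -0.88 in mESC and -0.33 in EpiLC.

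Both Spred genes were lower with PD as well. Spred1, the gene mutated in Legius syndrome, was at 369.7 in untreated mESC, 463.4 with CHIR and 116.0 with CHIR and PD. In EpiLC it was at 431.9, 701.9 and 258.2. The differences of PD on CHIR were -2.00 in mESC, where 17 genes had a lower one, and -1.44 in EpiLC, where 114 did. Spred2 was at 579.7, 552.3 and 330.7 in mESC, and at 536.1, 623.5 and 368.9 in EpiLC. Its PD differences were close to each other, -0.74 in mESC and -0.76 in EpiLC, and neither reached 2-fold. For Spred1 and Spred2 alike, the 2 arrays with PD were below the 4 without.

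Il17rd, the Sef gene, overlapped between the groups. It was at 206.9 in untreated mESC, 314.3 with CHIR and 179.7 with CHIR and PD, and at 369.1, 457.2 and 216.2 in EpiLC. The EpiLC array with PD was above the untreated mESC array, so the PD arrays were lowest within each state but not over both. The difference of PD on CHIR was -0.81 in mESC and -1.08 in EpiLC. Both arrays with PD lay below all 4 others for 5 of the 6 genes, all but Il17rd, beside 8.44% of all genes.

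**Figure D1:**
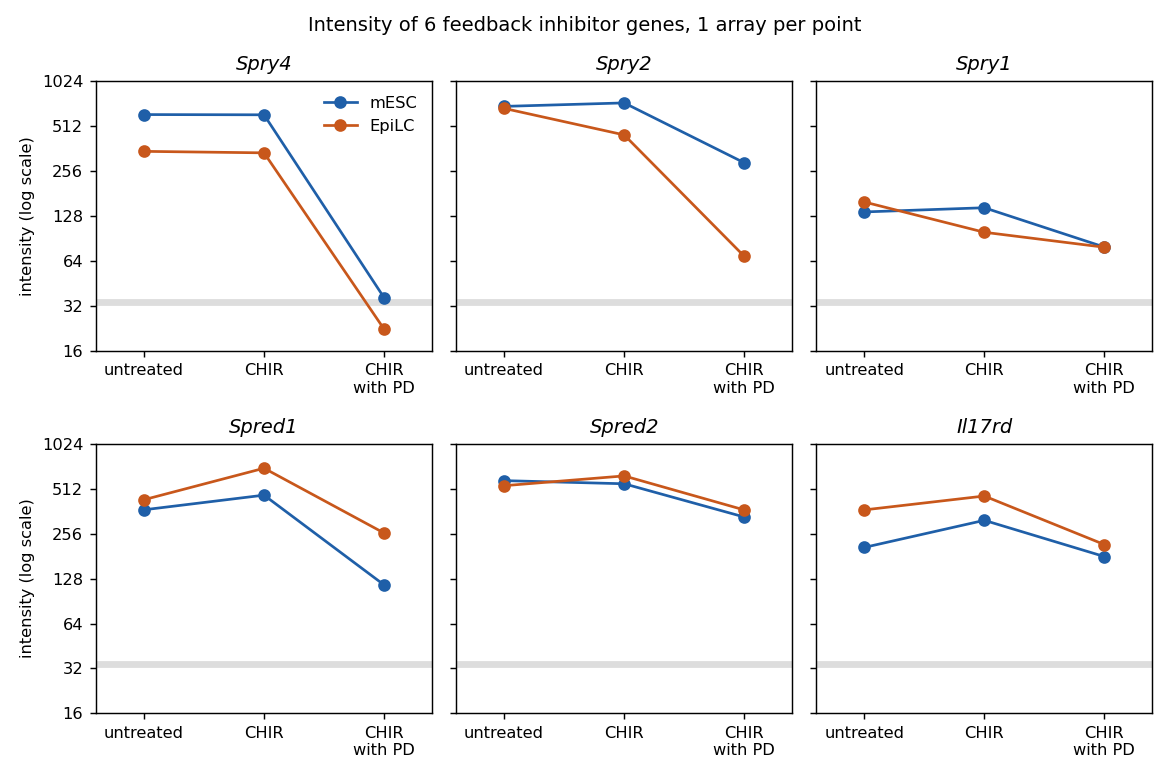
Intensity (log scale) of the 6 genes by treatment, 1 array per point, with mESC in blue and EpiLC in orange; the grey band marks the lower quartile of all probes on the 6 arrays (32.49 to 35.23). Every line drops from CHIR to CHIR with PD, and Spry4 alone comes near the band, just above it at 36.2 in mESC and below it at 22.3 in EpiLC.

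Counted by size, 3 of the 6 genes (Spry4, Spred1 and Spry2) were at least 2-fold lower with PD than with CHIR alone in mESC, where 0.523% of all genes were. In EpiLC the same 3 genes and Il17rd made 4 of 6, beside 1.01% of all genes. The 3 genes that were at least 2-fold lower in both states stood beside 0.153% of all genes. All 6 members were lower by some amount in both states, as were 29.5% of all genes. The median log2 difference of the members was -1.10 in mESC and -1.26 in EpiLC, and that of all genes was -0.01 and -0.02.

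**Figure D2:**
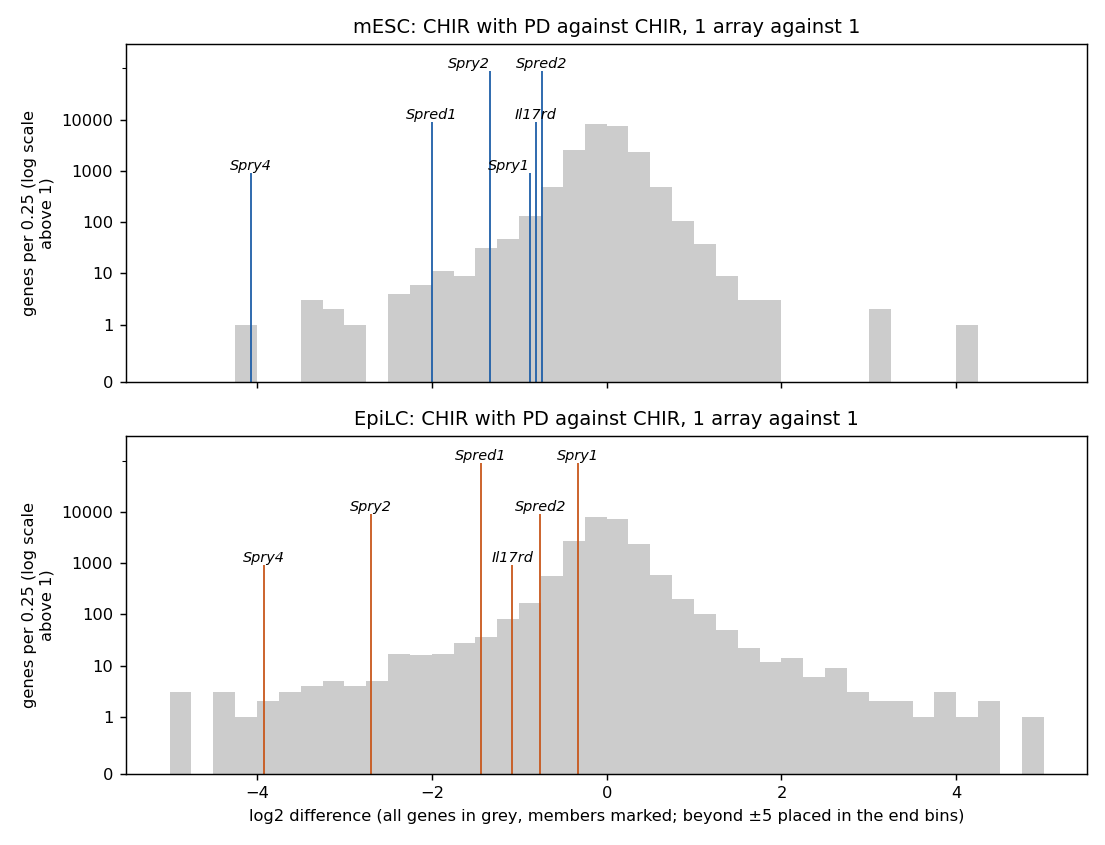
Histogram of the log2 difference between CHIR with PD and CHIR alone over 22180 genes, 1 array against 1 in each state, with the 6 members as labelled lines. Spry4 lies at -4.07 in mESC, beyond every other gene when probes are averaged per gene, and at -3.92 in EpiLC, while Spry1 in EpiLC lies at -0.33 in the shoulder of the distribution.

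The response common to both states was tested in 1 linear model of cell state plus treatment over the 6 arrays (limma), whose residual is the departure from additive effects. Spry4 fell by 3.99 on the log2 scale when PD was added to CHIR (SE 0.12, 95% interval -4.30 to -3.69, limma adjusted p = 0.0025). It was the only member past the adjusted threshold of 0.05, so 1 of 6 members fell, beside 0.018% of all genes. The others did not pass after adjustment over all genes, although their intervals lay below 0. Spry2 had a difference of -2.02 (SE 0.45, interval -3.13 to -0.90, limma adjusted p = 0.687), an error that holds the gap between the states. Without the array of EpiLC with both inhibitors that difference was -1.16 (limma adjusted p = 0.458). Spred1 was at -1.72 (SE 0.23, interval -2.29 to -1.15, limma adjusted p = 0.367), Il17rd at -0.94 (SE 0.17, limma adjusted p = 0.57), Spred2 at -0.75 (SE 0.14, limma adjusted p = 0.601) and Spry1 at -0.60 (SE 0.20, limma adjusted p = 0.843). At an unadjusted p under 0.05, 6 of 6 members were lower, beside 2.84% of all genes. Without the array of mESC with CHIR and PD, 2 members fell, Spry4 and Spry2 (-2.87, limma adjusted p = 0.0239), and the PD effect then rests on the EpiLC array alone. Spry4 missed the threshold when the floor of 16 was raised to 64 before the log (-2.71, limma adjusted p = 0.212) and without moderation of the variances (adjusted p = 0.563).

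**Figure D3:**
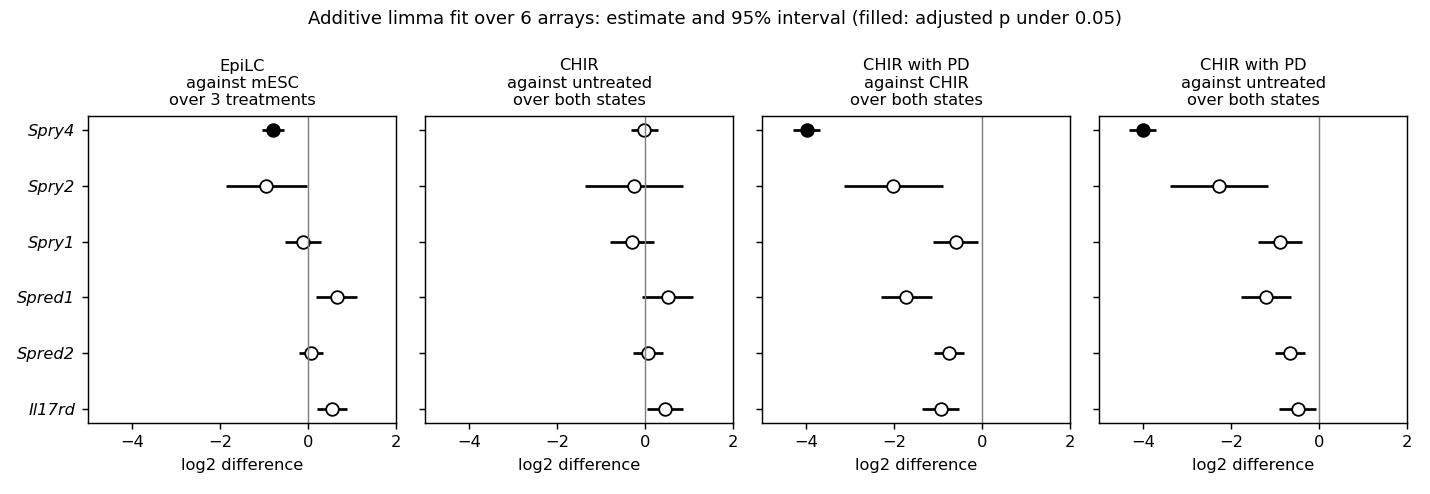
Log2 difference of each gene in the 4 comparisons of the additive limma fit over 6 arrays, with 95% intervals; filled points have an adjusted p under 0.05. Spry4 is filled in 3 panels, at -0.79 for EpiLC against mESC, -3.99 for PD added to CHIR and -4.01 for both inhibitors against untreated, and all 6 intervals lie below 0 in the 2 panels with PD.

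Markers of other cell types differed along with PD, more of them in EpiLC than in mESC. The mesoderm markers Msgn1, Tbx6 and Mixl1 (3 of the 5 measured) were at least 2-fold lower with PD than with CHIR alone in EpiLC, and the list summed to 8198 with CHIR and to 529 with CHIR and PD. The neuroectoderm list went from 705 to 1656 between these arrays, with 1 of 3 genes at least 2-fold higher, and 2 of 7 fibroblast markers were at least 2-fold higher. Of the primitive endoderm markers 3 of 5 were at least 2-fold lower (list sum 1231 to 361), as were 3 of 6 formative markers, while 3 of 8 naive, 2 of 3 pluripotency and 1 of 4 trophoblast markers were at least 2-fold higher. In mESC the mesoderm list went from 858 to 761, with 1 of 5 genes at least 2-fold lower (Mixl1, 321.2 to 33.6). There 1 of 4 trophoblast markers (Cdx2, 272.6 to 111.1) and 1 of 6 formative markers were also at least 2-fold lower, and 0 of 5 primitive endoderm, 0 of 8 naive, 0 of 3 pluripotency, 0 of 3 neuroectoderm and 0 of 7 fibroblast markers differed 2-fold. No marker was at an intensity of 0, since 16 is the lowest value. The part of these cell types in the differences of the members was not tested.

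With CHIR alone, Spry4 was at 99.6% of its untreated level in mESC and at 97.7% in EpiLC, and the other genes were divided. In mESC Il17rd was 1.52-fold higher with CHIR (206.9 to 314.3) and Spred1 1.25-fold higher, while Spry1, Spry2 and Spred2 lay between 0.07 below and 0.09 above on the log2 scale. In EpiLC Spred1 was 1.63-fold higher (431.9 to 701.9), Il17rd 1.24-fold and Spred2 1.16-fold. Spry1 and Spry2 went the other way there, Spry1 to 62.7% of its untreated level and Spry2 to 66.4%. No member reached 2-fold in either state, in either direction, beside 0.153% of all genes that were that much lower and 0.185% that were higher in mESC, and 0.929% and 1.77% in EpiLC.

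**Figure D4:**
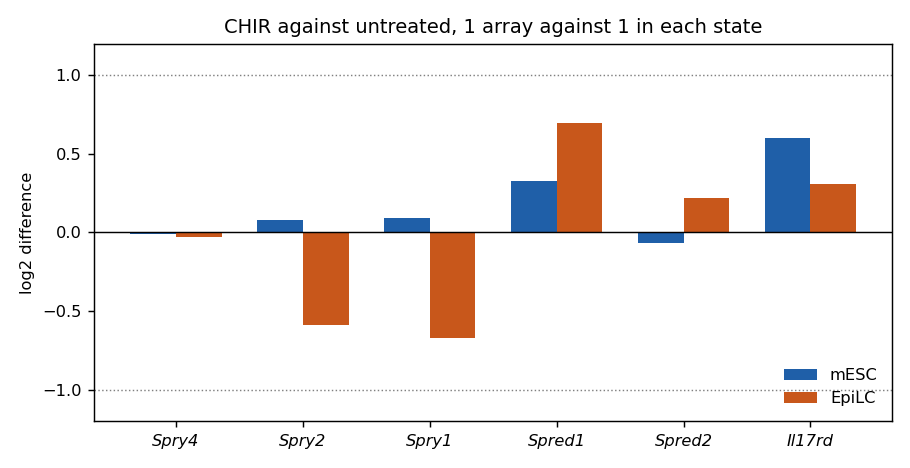
Log2 difference between CHIR-treated and untreated cells for the 6 genes, 1 array against 1 in mESC (blue) and EpiLC (orange), with dotted lines at 2-fold. Spry1 and Spry2 are at -0.67 and -0.59 in EpiLC but near 0 in mESC, whereas Spred1 and Il17rd are above 0 in both states.

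In the additive fit 0 of 6 members rose or fell with CHIR, beside 0% of all genes, and 1 member, Il17rd, was higher at an unadjusted p under 0.05, beside 4.15% of all genes, and 0 were lower, beside 3.12%. Il17rd was higher by 0.46 (SE 0.17, limma adjusted p = 0.673) and Spred1 by 0.51 (SE 0.23, limma adjusted p = 0.714). The interval for Spry4 was -0.33 to 0.29 around -0.02, while that for Spry2 was -1.37 to 0.86. Both measure only the departure from additive effects with 1 array per group, so they put no bound on a CHIR effect. The count stayed 0 in the 14 alternative settings. In EpiLC the mesoderm markers Msgn1, Tbx6 and Mixl1 were at least 2-fold higher with CHIR (3 of 5 measured, list sum 542 to 8198), and 2 of 5 primitive endoderm markers were too. Their part in the values of Spry1, Spry2 and Spred1 in EpiLC was not tested.

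Set against untreated cells, which also served as the controls for CHIR, both inhibitors together were accompanied by lower values of all 6 genes in each state. For this comparison the share of all genes lower in both states is not given here, so that count is not read as a result. In mESC 3 of 6 were at least 2-fold lower, beside 0.848% of all genes, namely Spry4 at 5.94% of its untreated level, Spred1 at 31.4% and Spry2 at 41.9%. In EpiLC it was 3 of 6 beside 1.49%, but there Spry4 at 6.45% and Spry2 at 10.2% were joined by Spry1 at 49.7%, and Spred1 was left at 59.8%. Spry2 and Spred1 thus took opposite places, the EpiLC minus mESC difference of the response being -2.04 for Spry2 and 0.93 for Spred1 (log2, 1 array per group, not tested). Spry1 in EpiLC, at -1.01, was only just past 2-fold. It was at -0.94 with arrays centred on their medians and at -0.70 with the floor raised to 64. Il17rd, which CHIR alone had left higher, was at 86.9% of its untreated level in mESC and 58.6% in EpiLC.

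Over both states Spry4 fell by 4.01 on the log2 scale with both inhibitors (SE 0.12, limma adjusted p = 0.00244). It was 1 of 6 members that fell, beside 0.0271% of all genes, and 6 of 6 were lower at an unadjusted p under 0.05, beside 6.85%. Spry2 had a difference of -2.27 (SE 0.45, limma adjusted p = 0.163), Spred1 one of -1.21 (SE 0.23, limma adjusted p = 0.159) and Spry1 one of -0.90 (SE 0.20, limma adjusted p = 0.193). The Spry4 call was lost without the untreated mESC array (-3.99, limma adjusted p = 0.0547) and without the untreated EpiLC array (-4.04, limma adjusted p = 0.16). Without the array of mESC with both inhibitors Spry2 was at -3.12, and without that of EpiLC it was at -1.42. Each of these values rests on the 1 array with PD that was left.

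Between the states, Spry4 was lower and Spred1 and Il17rd were higher in EpiLC. Spry4 was lower in EpiLC at each treatment, at 56.7% of the mESC level untreated, 55.6% with CHIR and 61.6% with both inhibitors. The last share rests on values near or under the lower quartile (36.2 and 22.3), and its log2 difference of -0.70 became -1.23 with the floor lowered to 4 and -0.26 with it raised to 64. Spry4 fell by 0.79 on the log2 scale over the 3 treatments (SE 0.10, interval -1.04 to -0.54, limma adjusted p = 0.0118) and was the only member past the threshold, 1 of 6 beside 4.15% of all genes that fell. Leaving out either CHIR array ended that call (-0.76, limma adjusted p = 0.0627). Spred1 and Il17rd were higher in EpiLC in all 3 pairs of arrays, by 0.66 (SE 0.19, interval 0.19 to 1.12, limma adjusted p = 0.0986) and 0.55 (SE 0.14, interval 0.21 to 0.89, limma adjusted p = 0.0726), both short of the threshold. With each array centred on its median, Il17rd passed (0.61, limma adjusted p = 0.0466); without centring 0 of 6 members rose, beside 4.15% of all genes. Spred2 (0.07, interval -0.20 to 0.35) and Spry1 (-0.11, interval -0.52 to 0.30) had intervals that spanned 0. These measure only the departure from additive effects and put no bound on a state difference. The Spry1 value pools unequal pairs, at 0.22 untreated and -0.55 with CHIR (log2).

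Spry2 was at nearly the same intensity in the untreated states (692.7 and 671.6), at 61.0% of the mESC level with CHIR and at 23.6% with both inhibitors. Over the 3 treatments it had a difference of -0.95 (SE 0.37, limma adjusted p = 0.194), which thus pools unequal pairs. In the untreated pair 0 of 6 members were at least 2-fold lower or higher, beside 2.30% and 1.47% of all genes, and with CHIR also 0, beside 2.63% and 2.45%. With both inhibitors Spry2 was the 1 member at least 2-fold lower in EpiLC, beside 3.11%, and Spred1 the 1 at least 2-fold higher (116.0 and 258.2), beside 3.29%. In that pair of arrays 3 of 6 formative markers were also at least 2-fold higher in EpiLC. All 8 naive markers were at least 2-fold lower there. Fgf5, 1 of the formative markers, was dim in both, at 19.9 in mESC and 39.4 in EpiLC.

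The 6 profiles followed one another to different degrees over the arrays, all of which share the step to PD. Pearson r on the log2 scale over the 6 arrays ran from 0.41 for Spry2 with Il17rd to 0.93 for Spry4 with Spred2. It was 0.90 for Spry2 with Spry4, 0.92 for Spred1 with Spred2 and 0.86 for Spred1 with Il17rd. The 3 genes most like Spry4, among 2836 genes with a range of at least 1 (log2), were Etv4 (r = 0.966), Etv5 (0.953) and Etv1 (0.929), and 8 genes had an r of at least 0.9. Spred2 was followed by the dual-specificity phosphatase genes Dusp6 (0.973) and Dusp4 (0.971) and by Itga1 (0.953). Itga1 (0.966) and Dusp4 (0.957) also led for Spred1, before Alox15 (0.936). Spry2 was most like Sgk3 (0.977), Ovol1 (0.973) and Socs2 (0.971). Spry1 was most like Slc39a14 (0.972), Rerg (0.970) and Zfp365 (0.968), and Il17rd was most like Arhgef26 (0.986), Arhgef5 (0.961) and Adm2 (0.956). With 6 arrays such values describe how alike the log2 levels ran, not a shared order of the arrays, and carry no test.

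Both relatives outside the 6 genes were measured. Spred3, the third Spred gene, was at 318.2, 356.2 and 99.1 in mESC and at 912.4, 915.3 and 119.9 in EpiLC. It was thus 2.87-fold higher in untreated EpiLC, and PD on CHIR made a difference of -1.85 in mESC and -2.93 in EpiLC. In the fit its PD difference was -2.39 (SE 0.31, limma adjusted p = 0.367). It was -2.97 without the array of mESC with both inhibitors, where the PD effect rests on the EpiLC array alone. Spry3 was dim on all arrays, between 36.1 and 52.4, with a PD difference of -0.20 (SE 0.12, limma adjusted p = 0.854).

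The rest of the pathway was set beside the inhibitors through lists written with earlier results of these data known. Among other ERK-induced feedback and target genes, 3 of 19 measured fell when PD was added to CHIR and 0 rose, beside 0.018% of all genes that fell. In limma 11 of 19 were lower at an unadjusted p under 0.05, beside 2.84% of all genes. Dusp4 was at -3.31 (SE 0.13, limma adjusted p = 0.00522), Etv4 at -3.28 (SE 0.19, limma adjusted p = 0.0205) and Dusp6 at -2.36 (SE 0.13, limma adjusted p = 0.0205). With its brightest probe in place of the mean of its probes, Dusp6 was at -4.40 (limma adjusted p = 0.00359). The Etv4 and Dusp6 calls were lost without the array of EpiLC with both inhibitors (adjusted p = 0.0885 and 0.0899), and that of Dusp6 also without either untreated array (0.133) and without the EpiLC array with CHIR (0.0879). Both calls were also lost with the floor lowered to 4 (0.0685 and 0.0875) or raised to 64 (0.317 and 0.237), and those of Dusp4, Etv4 and Dusp6 without moderation (0.704, 0.865 and 0.745). Egr1, an immediate early gene, went from 87.6 to 25.7 in mESC and from 275.6 to 32.1 in EpiLC. It was at -2.43 (SE 0.33, limma adjusted p = 0.367). Without the array of mESC with both inhibitors it was at -3.06, and the PD effect then rests on the EpiLC array alone. The median of the list was -0.64, beside -1.33 for the 6 inhibitors and -0.01 for all genes.

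Genes of the relay that the inhibitors act on had differences close to 0. Of 13 measured genes, from Frs3 and Grb2 to Map2k1 and Map2k2, 0 fell or rose with PD in limma. Of all genes 0.018% fell and 0% rose. At an unadjusted p under 0.05 in limma, 0 were lower or higher, beside 2.84% of all genes that were lower. The differences of the 13 relay genes ran from -0.17 to 0.32, with Sos2, a Ras exchange factor, at the upper end. Of 13 partners and modifiers of Sprouty and Spred proteins, among them Nf1, which encodes neurofibromin, and Cbl, 0 fell or rose. At an unadjusted p under 0.05 in limma, 0 were lower, beside 2.84% of all genes, and 2 were higher. The share of all genes that were higher is not given here, so these 2 are not read as a result. The upper end was Tesk1, a kinase that binds Sprouty proteins, at 0.64 (SE 0.23, limma adjusted p = 0.843).

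FGF ligands and receptors went both ways, with 0 of 11 past the limma threshold, beside 0.018% of all genes that fell and 0% that rose. At an unadjusted p under 0.05 in limma, 1 was lower, beside 2.84% of all genes, and 1 was higher. The share of all genes that were higher is not given here, so these counts are not read as a result. The receptor gene Fgfr2 was higher with PD in both states (78.3 to 177.2 in mESC and 44.6 to 117.1 in EpiLC; 1.28, SE 0.16, limma adjusted p = 0.367). Fgf4, the ligand, was at 1125.2, 909.5 and 1482.3 in mESC and at 507.8, 53.7 and 119.1 in EpiLC. Fgf5 went from 770.0 to 39.4 in EpiLC, whereas it was dim in mESC (35.6 to 19.9). Its common difference was -2.56 (SE 0.94, limma adjusted p = 0.843). That became -4.46 without the array of mESC with both inhibitors and -0.66 without that of EpiLC, each resting on the 1 array with PD that was left. Spry4, Spry2 and Spred1 were at least 2-fold lower with PD in both states, beside 0.153% of all genes. No FGF ligand or receptor of the list was, which is near that share and so is not read as a contrast.

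**Figure D5:**
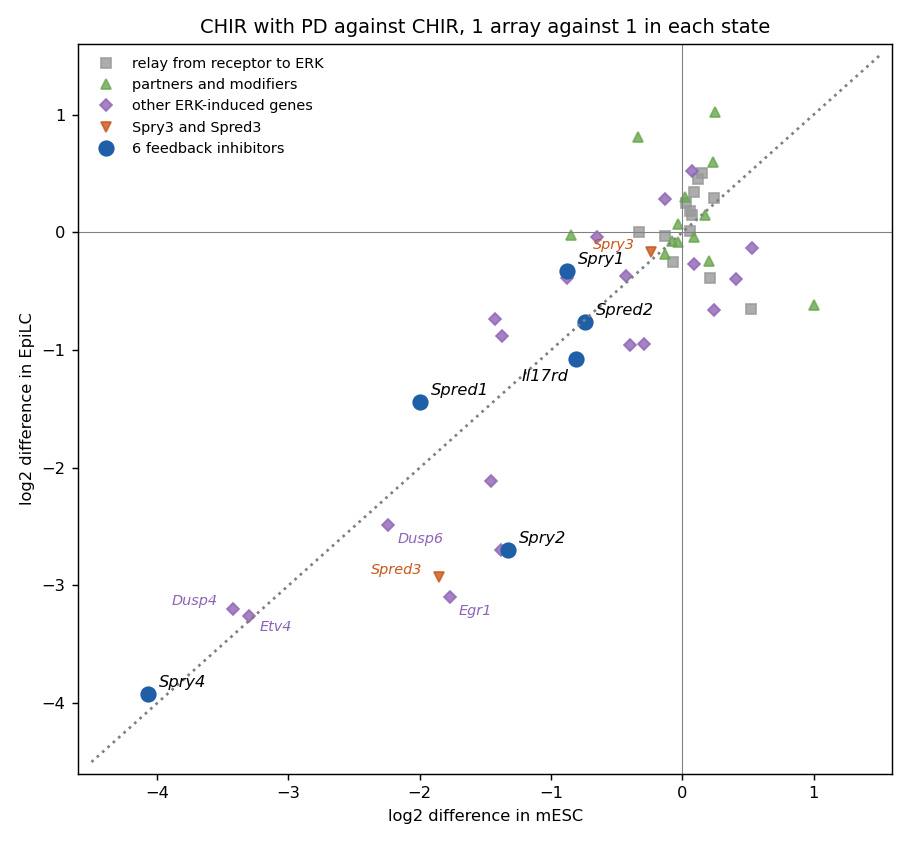
Log2 difference between CHIR with PD and CHIR alone in mESC (horizontal axis) and EpiLC (vertical axis) for the 6 inhibitors, Spry3 and Spred3, other ERK-induced genes, relay genes and partners, 1 array against 1 in each state; the dotted line marks equal differences. Spry4 (-4.07 and -3.92) and Spred2 (-0.74 and -0.76) lie near the line, Spry2 (-1.33 and -2.70) below it and Spred1 (-2.00 and -1.44) above it, while the relay genes cluster near 0.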

How the data were processed

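Total RNA of 6 cultures was labelled with the WT PLUS kit and hybridised to 6 arrays, per the labels' protocols, and analysed with GeneSpring GX 11.5, per the series' design text. The deposited values are linear intensities per transcript cluster, which the authors had normalized between arrays; the method is not given in the sources used here. Of 33793 probes, 23521 carried 1 gene symbol, and log2 intensities were averaged per symbol (22180 genes, 0 missing values, no filter). Each of the 6 genes had 1 probe, and 0 probes with several symbols named one. The model of state plus treatment was fitted with limma 3.58.1 under R 4.3.3 (default eBayes moderation, 2 residual degrees of freedom, checked on simulated data), with Benjamini-Hochberg adjustment over all genes at 0.05, two-sided. Alternatives were other floors (intensity minus 16 plus 4 or 64), normalizations, a dim filter, the brightest probe, other moderation and leaving out each array. Single arrays were compared by size, with a 2-fold threshold. Precision is limited by the number of arrays, and since nothing says that the groups were cultured more than once, p-values measure only the departure from additive effects. The members and lists were chosen with earlier results of these data known. Named genes were the 6 members, at most the 4 largest PD differences per list, and the 3 most alike per member.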

Additional observations from a re-analysis of the deposited data

Results flagged for a closer look

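Under CHIR, 3 of the 6 genes had differences of opposite sign in the 2 states, with 1 array per group, and the difference between the states was not tested. No share of all genes with opposite signs is given here, so this count is not read as a result. Spry1 was at 0.09 in mESC and -0.67 in EpiLC, Spry2 at 0.08 and -0.59, and Spred2 at -0.07 and 0.22 (log2, CHIR against untreated). The mESC values of all 3 were close to 0.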

How the results depend on the processing

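The single-array counts of members at least 2-fold apart kept within 1.5 times of their value under other constants, normalizations and probe choices, except between the states with both inhibitors, where 2 were lower with the floor of 16 lowered to 4 and 0 higher with it raised to 64. Within that range, the EpiLC count for both inhibitors against untreated went from 3 to 2 with median centring or a floor of 64. The EpiLC count for PD added to CHIR went from 4 to 3 with a floor of 64. In the limma fit the members that fell became 0 in each comparison that had 1 (EpiLC against mESC, PD added to CHIR, both inhibitors against untreated) with a floor of 64 and 0 without moderation. Leaving out 1 array at a time gave 0 to 1 for the states, 1 to 2 for PD added to CHIR and 0 to 2 for both inhibitors. With arrays centred on their medians 1 member rose in EpiLC. The Spry4 difference for PD added to CHIR kept its sign in all 14 settings (-4.80 to -2.71) and its call in 12 (adjusted p 0.000768 to 0.563), and the state difference kept its call in 10 of 14 (adjusted p 0.00875 to 0.229). Signs turned only for values that passed no test. Leaving out 1 array, Spry1 ran from -0.27 to 0.11 between the states, and under CHIR Spry1 ran from -0.62 to 0.04, Spry2 from -0.93 to 0.42, Spred2 from -0.07 to 0.21 and Spry4 from -0.06 to 0.02, the last also 0.02 with median centring. The cause was not tested, beyond there being fewer arrays in the fit. No paired analysis was possible because the labels carry no replicate numbers and each group is 1 array. Dim signal limits Spry4 with PD and Spry3, whose values lie near the lower quartile. Spry2 in EpiLC with both inhibitors, at 68.6, also moved with the floor. With a floor of 64 its difference there was -2.08 against CHIR alone and -2.63 against untreated.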
